A study of Drosophila melanogaster with 4 samples.

Results

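The telomere-proximal ends of 4 chromosome arms of Drosophila melanogaster were examined for enrichment of the linker histone H1 in adult heads. An end was the outermost 1 Mb of 2L, 3L and X, and on 3R the stretch from position 26900001 to the end of the arm at 27905053, in the coordinates of genome release 5. Enriched regions, called clusters, belonged to an end when they lay wholly inside its window in the list made for the replicate set as a whole, called the combined list. This gave 352 of 15736 clusters, of which 99 came from 2L, 79 from 3L, 117 from 3R and 57 from X. The choice used position alone and no measured value. The same windows held 98 of the 2771 clusters of replicate 1 and 56 of the 2922 clusters of replicate 2.

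The study consists of 4 chromatin samples from head nuclei of wild-type Oregon-R flies, a laboratory strain, labelled as mixed adults. They are 2 H1 ChIP replicates and 2 input samples, and each input is tied by the labels to the ChIP sample of the same number. The flies were raised in population cages, heads were separated from whole adults with sieves, and chromatin was fixed with formaldehyde. The labels give neither the sex of the flies nor whether the replicates came from separate collections, so the spread between replicates may be technical. A head holds neurons, glia, muscle, fat body and cuticle-forming cells, and the lists do not tell these apart.

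H1 sits on the outside of the nucleosome, contacts the linker DNA on either side and favours the folding of nucleosome arrays. In flies it is needed for the structure of heterochromatin and for silencing of transposable elements. Drosophila chromosome ends are not built by telomerase. They carry arrays of the retrotransposons HeT-A, TART and TAHRE, followed inward by blocks of telomere-associated repeats and then by gene-bearing chromatin. The assembled arm is mostly that last part, and the alignable share of its bases was not determined, so a bin without clusters is a bin without calls. No gene is placed on these coordinates, since no annotation of release 5 was used here.

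The end of 3R was more densely covered by H1 clusters than the rest of its arm, the end of 3L less densely, and both held in each replicate. Coverage is the share of bases lying in clusters. On 3R the end was covered to 7.21% in replicate 1 and 4.42% in replicate 2, against 4.53% and 3.17% over the rest of the arm. The difference was 1.97 percentage points ± 1.01 (SD, n = 2 replicates), with the end higher in 2 of 2 replicates. On 3L the end was covered to 3.14% and 0.694% in replicates 1 and 2, against 3.60% and 3.42% over the rest. That difference was -1.59 points ± 1.61 (SD, n = 2), so the end was lower in both replicates by amounts that differed as much as their mean. An exact sign-flip permutation test over the 2 paired differences, two-sided, gave p = 0.5 on each of these arms, which is the smallest value that 2 pairs allow, so neither difference passed a test.

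The end of X was also above the rest of its arm in both replicates, although X as a whole carried few clusters. It was covered to 2.01% and 0.939% in replicates 1 and 2, against 0.861% and 0.750%, a difference of 0.669 points ± 0.678 (SD, n = 2, exact permutation p = 0.5). The end of 2L did not keep one direction, with 4.65% against 3.48% in replicate 1 and 3.45% against 3.69% in replicate 2. The combined list gave 27.9% against 24.1% on 3R, 13.5% against 23.8% on 3L, 9.05% against 7.59% on X and 22.1% against 24.4% on 2L. Its 1.16-fold excess on 3R was smaller than the 1.59-fold and 1.40-fold of the replicates. On 3R and 2L these ratios depended on how far the window reached, and for the outermost 500 kb both were below 1 in the combined list, at 0.599 and 0.356.

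**Figure D1:**
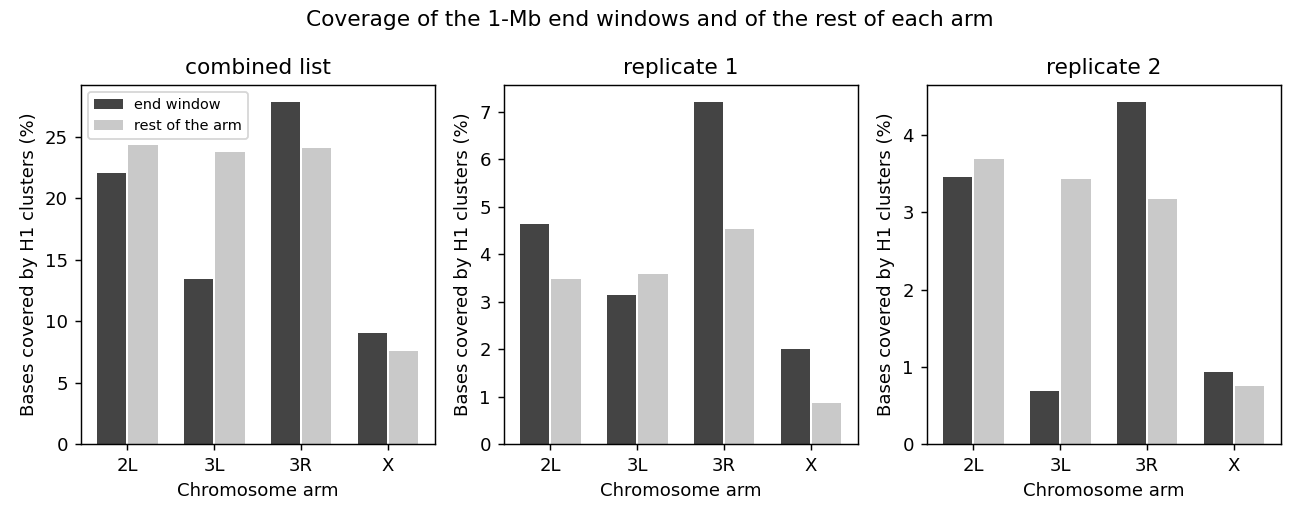
Share of bases covered by H1 clusters (y axis, percent, on its own scale in each panel) in the end window (dark bars) and in the rest of the arm (light bars) for 2L, 3L, 3R and X, in the combined list and in each replicate. Each bar is 1 value from 1 list. The end of 3R stands above the rest of its arm and the end of 3L below it in all 3 panels, from 13.5% against 23.8% in the combined list to 0.694% against 3.42% in replicate 2 on 3L.

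When each arm was cut into pieces of 1 Mb from its telomere end, the end of 3R was the 3rd most covered of 27 pieces in replicate 1, the 9th in replicate 2 and the 11th in the combined list. The end of 3L was the least covered of 24 pieces in replicate 2 and in the combined list, and the 15th in replicate 1. The end of X was the 2nd and 4th most covered of 22 pieces in replicates 1 and 2 and the 9th in the combined list. The end of 2L ranked 3rd, 13th and 16th of 23 in the same order.

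The coverage of an end was not spread evenly along it. In the combined list the outermost 250 kb of the 4 ends were covered to 6.67% on average over arms, the next 250 kb to 15.4%, those from 500 to 750 kb to 29.7% and those from 750 to 1000 kb to 20.4%. The mean of the replicates followed the same order of low outer and high inner values, at 1.14% ± 0.377, 2.52% ± 1.56, 6.70% ± 2.42 and 2.78% ± 1.17 (SD, n = 2 replicates). Against all pieces of 250 kb on the same arm, the outermost piece of 3L was the least covered of 98 in the combined list, and 3 of 92 were less covered than that of 2L. In the combined list the outermost pieces of 3R and X had 18 of 111 and 26 of 89 pieces below them. In replicate 2 the outermost piece of X lay above the arm's median piece, at 0.596% against 0.539% with 56 of 89 pieces below it, and that of 3R had 42 of 111 below it. In replicate 1 the outermost piece of 3L was covered to 2.57%, not far below the arm's median piece of 3.05%, so its low rank did not hold there.

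Each end began with a stretch without any cluster of the combined list. The gap was 11.0 kb on X, 14.8 kb on 2L, 44.2 kb on 3R and 68.2 kb on 3L. The first cluster of replicate 1 lay 27.9 kb from the end on 2L, 68.2 kb on 3L, 204.1 kb on 3R and 306.0 kb on X. In replicate 2 it lay 30.6 kb from the end on 2L, 119.2 kb on 3L, 49.7 kb on 3R and 66.9 kb on X. On 2L the first clusters of the replicates fell in the same 50-kb bin and on 3L in neighbouring bins, while on 3R and X they were more than 150 kb apart.

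**Figure D2:**
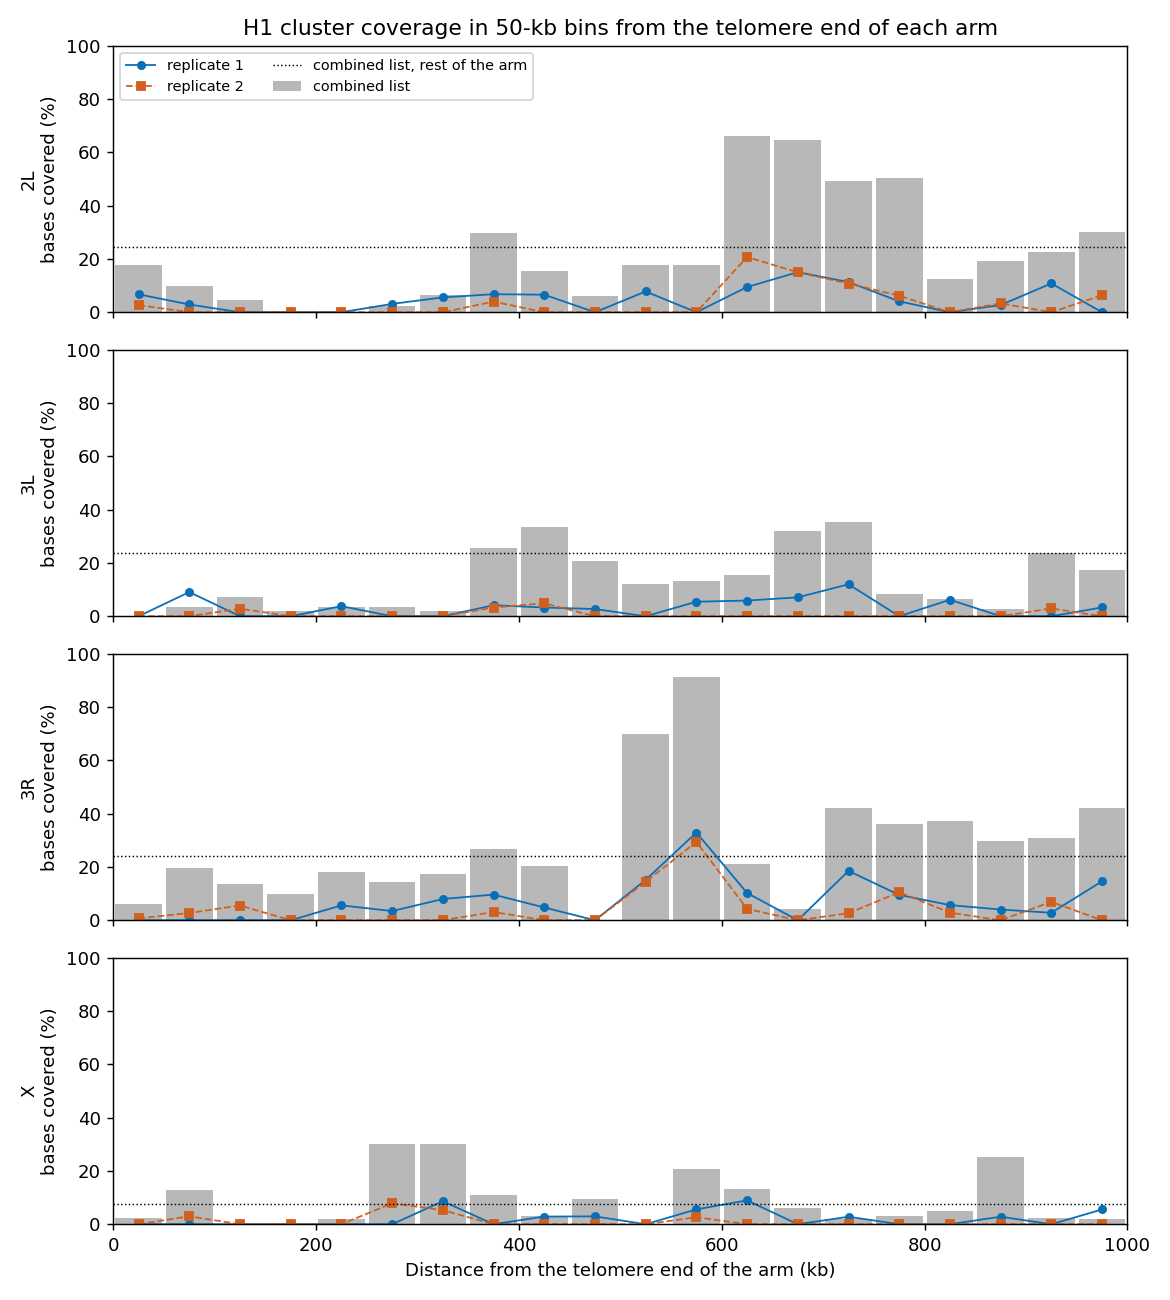
Share of bases covered by H1 clusters (y axis, percent) in bins of 50 kb against distance from the telomere end (x axis, kb) on 2L, 3L, 3R and X. Grey bars are the combined list, circles replicate 1, squares replicate 2, and the dotted line is the combined coverage over the rest of the arm. On 3R all 3 lists peak in the bin from 550 to 600 kb, at 91.3%, 32.9% and 29.4%, and on 2L the combined list stands at 49.2% or more from 600 to 800 kb.

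On 2L the 4 most covered bins of the combined list were neighbours, from 600 to 800 kb. In the combined list they were covered to 66.1%, 64.7%, 49.2% and 50.4%, while the rest of the arm averaged 24.4%. Replicate 1 had 9.47%, 15.0%, 11.3% and 4.10% there and replicate 2 had 20.7%, 15.0%, 10.8% and 6.20%. Both replicates stood above their averages over the rest of the arm in all 4 bins, 3.48% and 3.69%, but replicate 1 only slightly so in the innermost, below its 10.8% from 900 to 950 kb. The bin from 600 to 650 kb ranked 5th of 460 bins of the arm in the combined list, and the piece from 500 to 750 kb ranked 8th, 2nd and 8th of 92 in the combined list and replicates 1 and 2.

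The stretch of 2L from 100 to 350 kb was sparse, with 6.33% or less per bin in the combined list, while the bins from 350 to 400 and from 950 to 1000 kb reached 29.6% and 30.0%. No combined cluster lay from 146.5 to 254.4 kb, a gap of 107.9 kb that 3 other gaps on the arm exceeded. The bins from 150 to 200 and from 200 to 250 kb were empty in all 3 lists. No replicate cluster lay wholly in the gap, and 1 of replicate 1 reached 328 bp into it from the member at its inner edge. The 2L member nearest the arm end, at 14760 to 16017, had a fold enrichment of 1.21 and no overlap with either replicate.

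The longest member on 2L, at 629171 to 642112, measured 12942 bp with a fold enrichment of 1.39. Clusters of replicate 1 covered 11.3% of it and clusters of replicate 2 48.1%. It opens a run of 10 members separated by at most 1 kb, which spans 629171 to 675862. Over these 46.7 kb the combined list covered 90.5%, replicate 1 20.2% with 5 clusters and replicate 2 26.3% with 8 clusters. The highest-scoring member, at 717223 to 720305, had a fold of 1.45 and was covered to 44.3% and 79.6% by replicates 1 and 2.

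On 3R the peak was narrower and higher than on 2L. The bin from 550 to 600 kb was covered to 91.3% in the combined list, the highest of 558 bins on the arm, to 32.9% in replicate 1, also the highest, and to 29.4% in replicate 2, the 4th highest. Its outer neighbour, from 500 to 550 kb, had 69.8%, 15.2% and 14.4% in the same order. The piece from 500 to 750 kb ranked 5th of 111 in the combined list, 1st in replicate 1 and 4th in replicate 2. In the bin from 550 to 600 kb the replicates differed by less than they did in the 2L bin from 600 to 650 kb.

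The 3R peak ended abruptly on both sides. The bin from 450 to 500 kb was empty in the combined list and in both replicates. Inward of the peak lay the longest gap of this end, 69.2 kb from 615.3 to 684.5 kb. It held no cluster of either replicate, and 23 other gaps on the arm exceeded it. Beyond it the combined list ran at 29.8% to 42.2% per bin from 700 to 1000 kb, where replicate 1 had 2.81% to 18.5% and replicate 2 0% to 10.5%. From the tip to 450 kb the combined list stayed between 6.14% and 26.9% per bin.

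The peak on 3R held the longest members of the 4 ends. The longest, 16359 bp at 27312759 to 27329117 with a fold of 1.40, lay 575.9 kb from the end and was covered to 22.3% and 17.3% by replicates 1 and 2. It belongs to a run of 4 members from 27300997 to 27345275, of which the combined list covered 97.1%, replicate 1 30.9% with 6 clusters and replicate 2 34.03% with 7 clusters. A run of 5 members follows on its telomere side, at 27348237 to 27370909, covered to 92.3%, 31.7% and 33.7%. On 3R 10 members were longer than 5 kb, against 3 on 2L, 1 on 3L and none on X.

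On X the most covered stretch of the combined list lay nearer the tip, from 250 to 350 kb. The bins from 250 to 300 and from 300 to 350 kb were covered to 30.0% and 30.3% in the combined list, with 9 clusters each, and the latter ranked 5th of 448 bins on the arm. Replicate 1 had 0% and 8.64% there and replicate 2 had 7.89% and 5.29%. The piece from 250 to 500 kb ranked 5th, 5th and 4th of 89 in the combined list and replicates 1 and 2, so all 3 lists placed it high for X. In replicate 1 the piece from 500 to 750 kb was covered more, to 3.47% against 2.89%, and ranked 3rd of 89, with its most covered bin from 600 to 650 kb at 8.95%. Replicate 2 had 0.525% in that piece and 2.64% from 250 to 500 kb, so the replicates did not share their most covered piece.

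The X end also held long stretches without clusters, beside combined bins of 20.9% from 550 to 600 kb and 25.1% from 850 to 900 kb. The bins from 100 to 150, 150 to 200 and 500 to 550 kb held no cluster in any list, and the longest gap ran from 91.4 to 226.2 kb, 134.8 kb with no cluster of either replicate. On X as a whole 17 gaps were longer. The longest member, at 554668 to 559429, measured 4762 bp with a fold of 1.48 and was covered to 31.3% and 27.6% by replicates 1 and 2. The member nearest the tip, at 11049 to 12272, also had the highest score of the X end, a fold of 1.97, and overlapped neither replicate.

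No cluster of replicate 1 overlapped a cluster of replicate 2 at the 3L end. In the combined list the bins from 650 to 700 and from 700 to 750 kb had 32.2% and 35.5%, and those from 400 to 450 kb 33.7%. Replicate 1 had 7.09% and 12.0% in the former pair of bins and replicate 2 had no cluster there. Replicate 2 placed only 4 clusters on this end, in the bins from 100 to 150, 350 to 400, 400 to 450 and 900 to 950 kb. Both replicates had clusters in the bins from 350 to 400 and from 400 to 450 kb. These were covered to 4.13% and 3.28% in replicate 1 and to 3.27% and 4.86% in replicate 2, against 3.60% and 3.42% over the rest of the arm. The most covered bin of the combined list ranked 106th of 490 on the arm, so many bins elsewhere on 3L were covered more.

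From the tip to 350 kb the 3L end held 8 combined clusters, with 7.38% or less in every bin. The longest gap was 73.2 kb, from 825.4 to 898.6 kb, and 12 other gaps on the arm exceeded it. No replicate cluster lay wholly inside, and 1 of replicate 1 reached 31 bp into it from the member at its outer edge. The longest member, at 583098 to 588641, measured 5544 bp with a fold of 1.39, and replicate 1 covered 49.1% of it and replicate 2 none. In the bin from 50 to 100 kb replicate 1 had 9.07% with 3 clusters against 3.44% in the combined list. The combined list left out 2 of the 19 clusters of replicate 1 on this end.

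Across the 20 bins of an end, combined coverage had a Spearman's rho with distance from the tip of 0.67 for 2L, 0.62 for 3R, 0.49 for 3L and 0.05 for X. In replicate 1 the values were 0.18, 0.48, 0.16 and 0.30, and in replicate 2 0.43, 0.15, -0.06 and -0.34, in the same order. These describe neighbouring bins of 1 library and carry no p. Over the 80 bins of the 4 ends, 19 held cluster bases of both replicates, 27 of replicate 1 alone, 8 of replicate 2 alone and 26 of neither. The same counts over all bins of the arms were not determined. The median combined coverage was 33.7% in bins with both, 15.4% and 16.7% with replicate 1 or 2 alone and 2.88% with neither. The combined list held 93.7% and 97.4% of the clusters of replicates 1 and 2 on the 4 arms, so this order is not independent evidence. Bins without a combined cluster numbered 7 of 80, against a background of 9.66% over the 4 arms, and by arm 2 on 2L, 1 on 3L, 1 on 3R and 3 on X, where 27.7% of all bins were empty.

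Most members had scores in a narrow range. Only called clusters have a score, so the range may be limited by the call and is not comparable with the spread of coverage. Each cluster has 1 score from the authors, read as a log2 enrichment of ChIP over input, and fold enrichment is 2 raised to it. The 352 members had a median fold of 1.35 (quartiles 1.33 and 1.39) and ran from 1.19 to 6.27. By arm the median fold was 1.35 for 2L, 1.34 for 3L, 1.35 for 3R and 1.46 for X, against 1.34, 1.34, 1.34 and 1.48 over the rest of the same arms. On the log2 scale the median score of the X end was -0.02 relative to the rest of X, the largest such difference of the 4 ends in the combined list.

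**Figure D3:**
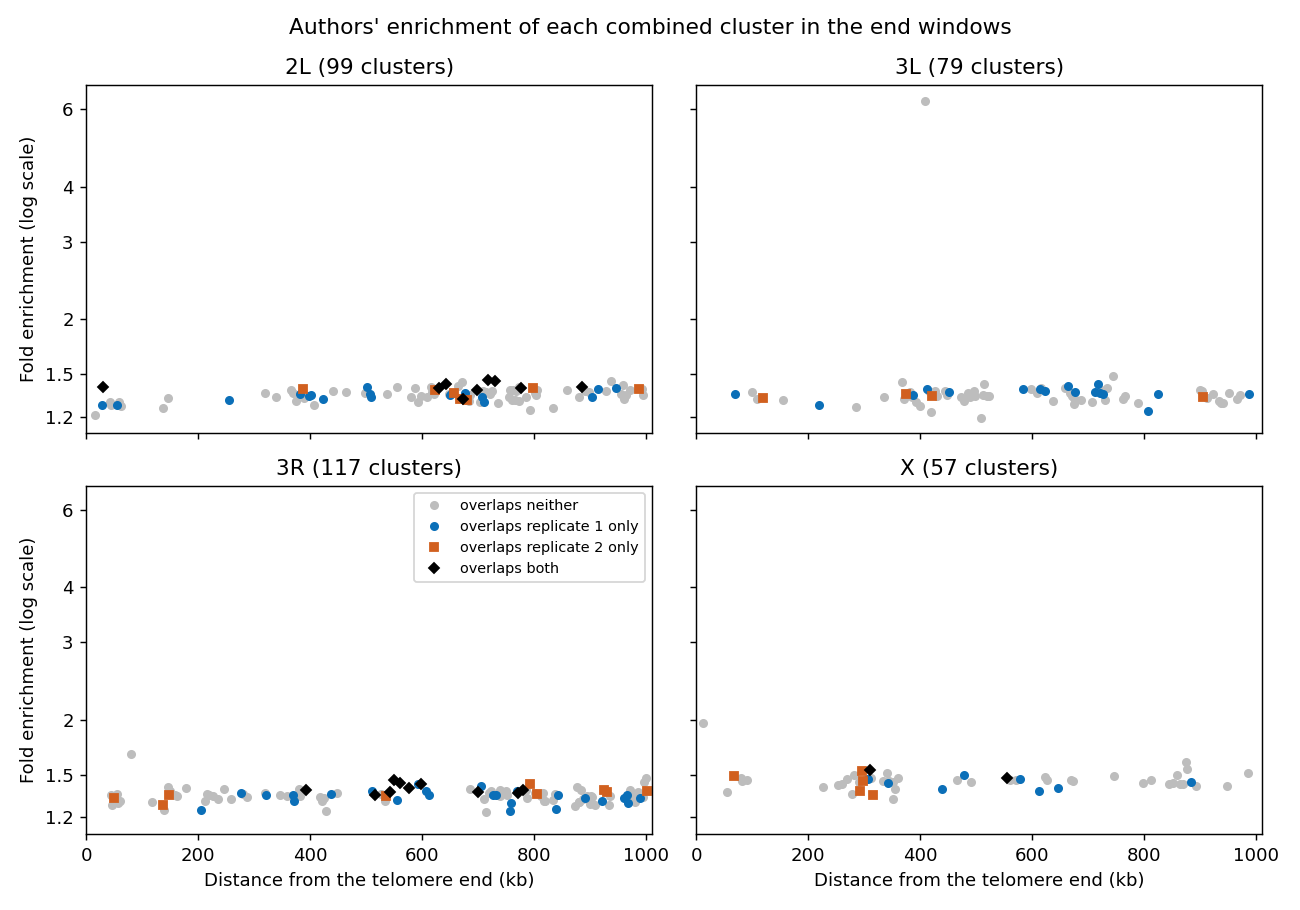
Fold enrichment of each combined cluster (y axis, log scale, from the authors' scores) against distance from the telomere end (x axis, kb) on 2L, 3L, 3R and X. Colour and shape show whether a cluster overlaps replicate 1, replicate 2, both or neither. Nearly all members lie in a narrow band around the median of 1.35, X members higher at a median of 1.46, and 1 member on 3L stands at 6.27.

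On 2L score and distance from the tip were positively rank-correlated in all 3 lists. The 10 members in the outermost 250 kb of 2L had a median fold of 1.28, those in the next pieces 1.35, 1.35 and 1.37. Spearman's rho between score and distance was 0.32 over the 99 members, 0.47 over the 28 clusters of replicate 1 and 0.30 over the 20 of replicate 2. In the combined list it was 0.03 on 3L, 0.01 on 3R and 0.03 on X. On X the replicates gave 0.26 over 14 clusters and 0.71 over 7, on 3R -0.09 over 37 and 0.02 over 25, and on 3L replicate 1 gave 0.03 over 19. Clusters of 1 arm share their libraries, so these values are descriptions. Median reduced input counts fell in the other direction on 2L, from 190.6 per kb in the outermost piece to 144.9 in the innermost. Such a count is the divisor, in lowest terms, of the ratio behind a score. It can lie below the input reads by any factor they share with the ChIP reads, so it does not measure input depth. Its part in the result was not tested.

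Of the 352 members, 10 had a fold above 1.5, of which 8 were on X, 1 on 3L and 1 on 3R. The share above 1.5 over the rest of the arms was not determined. Folds were high on X as a whole, with a median of 1.48 over the rest of X against 1.46 at its end. Median reduced input counts in the combined list were lower on X, 94.4 per kb at its end and 78.9 over its rest. At the ends of 2L, 3L and 3R they were 152.9, 149.5 and 150.6. The part of this in the counts and folds of X was not tested. The member of 6.27-fold lay on 3L at 408738 to 409759. Its reduced input count was 2, which can lie below its input reads, and neither replicate had a cluster there. The next highest on 3L had a fold of 1.49. On 3R the highest score belonged to a member at 27823472 to 27824503, 80.6 kb from the end, with a fold of 1.67, a reduced input count of 28 and no cluster of either replicate. Of the highest-scoring members of the 4 ends, only that of 2L met clusters of a replicate.

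Median lengths at the ends were above those of the rest of the arm on 2L, 3R and X and below on 3L. The median length was 1794 bp on 2L, 1391 bp on 3L, 1584 bp on 3R and 1383 bp on X, against 1553, 1527.5, 1543 and 1315.5 bp over the rest of these arms. Members longer than 5 kb made up 3.98% of the 352 and 1.63% of the 10488 clusters on the rest of the 4 arms. Spearman's rho between length and score was 0.20 on 2L, 0.11 on 3L, 0.12 on 3R and -0.27 on X, and 0.02 over the pooled members, whose arms differ in both. Of the 14 members longer than 5 kb, 13 scored above the median of their own arm end. The same share among clusters longer than 5 kb on the rest of the arms was not determined. Gaps under 100 bp between neighbouring members numbered 10 on 3R, 3 on 2L, 3 on 3L and 0 on X.

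The replicates were then used to see which members were also called in 1 library. Of the 352 members, 114 overlapped a cluster of at least 1 replicate (32.4%, 95% Wilson interval 27.7 to 37.4), against a background of 27.8% over all combined clusters of the 4 arms. Replicate 1 overlapped 89 (25.3%, background 16.5%) and replicate 2 overlapped 46 (13.1%, background 14.1%). Clusters of both replicates were met by 21 members (5.97%, 3.93 to 8.95), against a background of 2.79%. The share for replicate 2 was near its background, and that for replicate 1 above it. The combined list stands for the same replicates, so such shares are not independent evidence, and the intervals cover counting error only.

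Of the 21 members met by both replicates, 10 lay on 3R, 9 on 2L, 2 on X and none on 3L. Their median length was 4679 bp and their median fold 1.40, those met by 1 replicate had 2012 bp and 1.35, and those met by neither had 1325 bp and 1.35. A longer member has more room to meet a cluster. By distance, the share of members met by either replicate was 23.9% in the outermost 250 kb (13.9 to 37.9), 29.5% in the next (21.0 to 39.8), 45.2% from 500 to 750 kb (36.0 to 54.8) and 25.9% from 750 to 1000 kb (18.7 to 34.7). On 3R 16 of 25 members from 500 to 750 kb were met, or 64%, against 30.2% of clusters over the rest of the arm. The median length was 3380 bp in that piece and 1543 bp over the rest of the arm.

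The clusters of the replicates overlapped each other in a larger share at the ends of 2L, 3R and X than over the rest of these arms. There was no overlap at the end of 3L, where replicate 2 had only 4 clusters. Of 98 clusters of replicate 1 at the 4 ends, 21 overlapped a cluster of replicate 2 (21.4%, 14.5 to 30.5), against a background of 14.2% over the 4 arms. Of 56 clusters of replicate 2, 21 overlapped replicate 1 (37.5%, 26.0 to 50.6), against a background of 17.1%. By arm the count for replicate 1 was 11 of 37 on 3R, 8 of 28 on 2L, 2 of 14 on X and 0 of 19 on 3L. These counts are shares of 29.7%, 28.6%, 14.3% and 0%, against 14.7%, 15.1%, 6.72% and 12.9% over the rest of the same arms. Bases in both lists made up 7.76% of those in either at the ends and 4.93% over the rest. These differences were not tested.

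**Figure D4:**
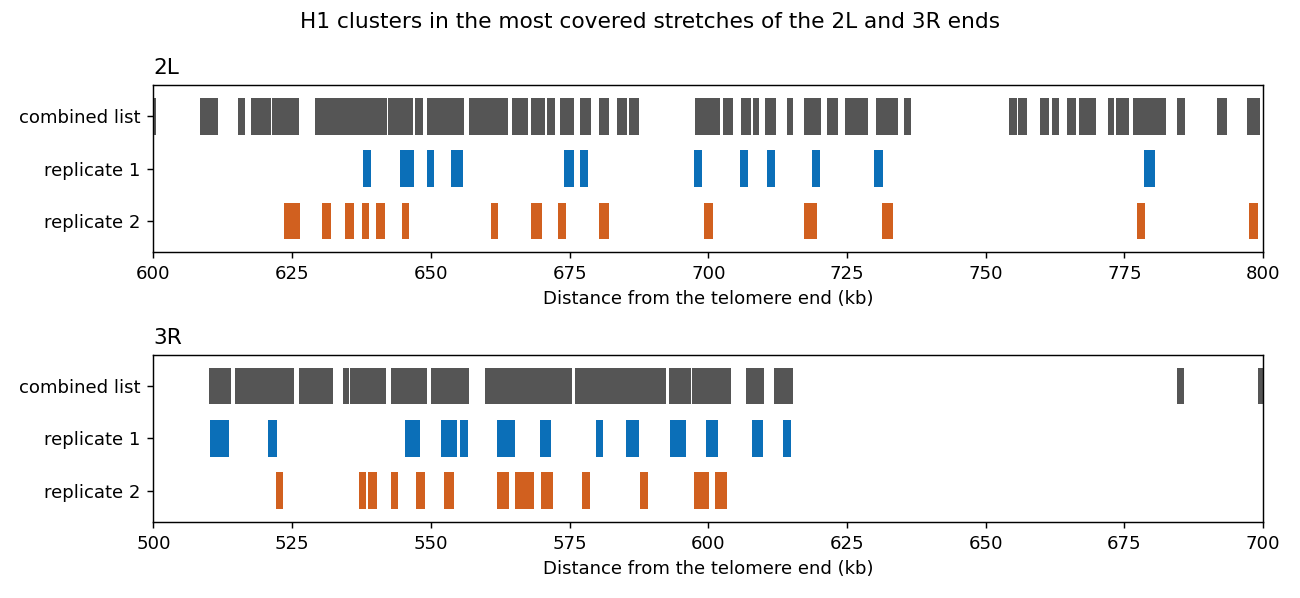
Positions of H1 clusters in the combined list (top row), replicate 1 (middle) and replicate 2 (bottom) against distance from the telomere end (x axis, kb), on 2L from 600 to 800 kb and on 3R from 500 to 700 kb. Each bar is 1 cluster drawn to scale. The combined list forms nearly unbroken runs, of 46.7 kb on 2L and of 22.7 and 44.3 kb on 3R, while the replicates place separate, shorter clusters inside them.

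Most of the shared positions on 2L and 3R lay in the dense blocks. These blocks were picked by coverage in the same lists and are dense in both replicates, so overlaps there are not independent evidence. The share of clusters that overlapped inside and outside the blocks was not determined. The longest overlap on 3R was 2044 bp at 27341001 to 27343044, where replicate 1 had a fold of 1.68 and replicate 2 of 1.60. The next was 1770 bp at 27350856 to 27352625, with folds of 1.63 and 1.52. Both lie in the bin from 550 to 600 kb. On 2L the longest was 1317 bp at 644750 to 646066, with folds of 1.60 and 1.58, inside the run from 629171 to 675862.

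Other overlaps lay outside the blocks, at 888 kb on 2L and at 396, 701, 702, 770 and 780 kb on 3R. A further overlap outside them was found close to the tip of 2L. It covered 1182 bp at 30574 to 31755, 30.6 kb from the end, with folds of 1.579 and 1.499 in replicates 1 and 2, and lay inside a combined cluster at 29765 to 33349. On X the overlaps were 1042 bp at 310657 to 311698, with folds of 1.88 and 1.77, and 933 bp at 557895 to 558827, with folds of 1.60 and 1.71. The former lies in the stretch of X from 250 to 350 kb described above and the latter inside the longest member of the X end. In the other direction, the combined list held 89 of the 98 clusters of replicate 1 (background 93.7%) and all 56 of replicate 2 (background 97.4%), and 4 of the 9 it left out lay on X.

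Clusters just inside and just outside the inner edge of each window had similar folds on the autosomal arms. On 2L the last cluster inside had a fold of 1.35 and the first outside 1.35, on 3L 1.35 and 1.36, on 3R 1.38 and 1.41, and on X 1.52 and 1.41. On 3R the first cluster outside, at 26899037 to 26900341, crossed the edge and was the only one of the combined list to do so.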

How the data were processed

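H1 ChIP-seq of fly head nuclei was deposited as 3 lists of enriched clusters, 1 for each of the 2 ChIP replicates and 1 for the replicate set. The submitters' processing notes name Bowtie 0.12.7, an aligner, and the file headers name FlyBase release 5 as the genome. The sources used here give neither the caller and threshold behind the clusters nor how the replicate set was combined. The score the authors deposited per cluster was read as a log2 enrichment of ChIP over input, from the values alone: raised as powers of 2, 99.9% or more of scores per list were ratios of whole numbers (divisors up to 2000, tolerance 1e-12) times 1 constant, known up to a simple factor. The divisor in lowest terms is the reduced input count, which can lie below the input reads and does not measure their depth. Library depth is unknown, and no list of the inputs was used here.

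Coverage, overlap (at least 1 bp) and distances were computed in Python 3.11.15 with numpy 2.4.6, pandas 2.3.3 and scipy 1.17.1, and tested on simulated clusters. Bins and pieces were counted from the telomere end, and 5053 inner bases of the 3R window lie in no bin. Coverage of an end counts clusters wholly inside it, and coverage of the rest of an arm counts all cluster bases there. End and rest were compared by means and SDs over the 2 replicates and, added after the values were seen, by an exact sign-flip permutation test of the 2 paired differences, whose smallest two-sided p is 0.5. Shares carry 95% Wilson intervals. Regions named are, for each end, the members nearest the tip, longest, highest in score and at the inner edge, the longest gap, the most and least covered bins and the 2 longest replicate overlaps. Runs, pieces of 250 kb and the cutoffs of 5 kb and 1.5-fold were chosen after values were seen. The members and lists were chosen with earlier results of these data known.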

Additional observations from a re-analysis of the deposited data

How the results depend on the processing

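Of 131 alternative values, 62 of the main results and 32 of single arms stayed within the spread of the replicates or the interval of the share. For the combined list that spread was taken in proportion from the replicates. Of the other values, 19 of the main results and 8 of single arms moved beyond it, and 10 of the main results reversed direction. With 2 replicates the spread was wide, and a coverage with 1 replicate left out falls within it by construction. On 3L the combined coverage of 13.5% counted as staying at 5.81%, with the highest-scoring 50% of clusters. The X and 3L ratios of end to rest kept their direction under every alternative run. Library depth is unknown, so no value could be set against it. For the outermost 500 kb, coverage of the 4 ends was 10.9% in the combined list and 1.83% in the mean of the replicates (18.1% and 3.32% for 1 Mb). The ratio to the rest became 0.531 and 0.587 for the 4 ends (0.892 and 1.09), 0.356 and 0.536 on 2L (0.906 and 1.13) and 0.599 and 0.522 on 3R (1.16 and 1.49). This window leaves out the blocks inward of 500 kb. For the outermost 2 Mb the combined ratio was 1.02 on 2L and 1.02 for the 4 ends. With the highest-scoring 50% of clusters, coverage of the 4 ends was 9.76% and 1.75%, and the ratio was 1.12 on 2L and 1.06 for the 4 ends in the combined list, and 1.41 and 2.07 on 3R in the combined list and the replicates; the cause was not tested. Leaving out 1 replicate gave ratios from 0.935 (without replicate 1) to 1.33 on 2L and from 0.849 to 1.32 for the 4 ends, so their direction differed between replicates. The most covered bins of 25 kb lay at 650 kb on 2L (86.9%), 400 kb on 3L (45.4%) and 275 kb on X (42.8%), and that of 100 kb on 3L at 400 kb (27.3%). Members meeting a replicate were 23.9% when 50% of the member had to be covered, 45.4% among members of at least 1301 bp, the shortest replicate cluster, and 13.1% to 25.3% with 1 replicate left out. Replicate clusters meeting each other were 13.3% of replicate 1 and 21.4% of replicate 2 at 50% of their length, and 12.0% of replicate 1 among the highest-scoring 50%. For the settings of 50% and of 1301 bp the background over the 4 arms was not determined. No paired analysis was possible because no list of the input samples was used here and only 1 group has values.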
